A study of Mus musculus with 12 samples.

Results

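A set of 10 imprinted genes was followed through adipogenesis of 3T3-L1 cells with and without knockdown of Fto: H19, Dlk1, Meg3, Mest, Peg3, Peg10, Cdkn1c, Nnat, Plagl1 and Ndn. They were chosen by name as imprinted genes with a role in growth, after H19 had been seen to be higher in shFto cells, so the list was selected on the line difference of H19. Each symbol had 1 row among the 55487 genes of the table, and all 10 were found. The 3T3-L1 line is a mouse fibroblast line whose confluent preadipocytes turn into adipocytes after induction with IBMX, dexamethasone and insulin. Stable lines were made with lentivirus that carried either a scrambled hairpin, shScram, or one that targets Fto, shFto, followed by puromycin. Fto encodes a demethylase of N6-methyladenosine in RNA. Each line was sequenced as preadipocytes (Pre), during mitotic clonal expansion (MCE) and after differentiation (Diff), with 2 libraries in each of the 6 groups. All groups thus share the parental line, a virus and puromycin selection, and the knockdown leaves some Fto RNA. The sources used here do not say which of the Fto hairpins the sequenced cells carried, nor whether the libraries of a group came from separate cultures, so p-values measure only the spread between these libraries.

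Imprinted genes are expressed mainly from the allele inherited from one parent, and most sit in clusters controlled by a region that is methylated on a single allele. As a group they regulate fetal growth: paternally expressed members such as Dlk1, Mest and Peg3 are mostly linked to growth promotion or to progenitor states, and maternally expressed ones such as H19 and Cdkn1c mostly restrain growth. In adipose biology Dlk1 (Pref-1) is the classical preadipocyte protein that inhibits adipogenesis, Mest is linked to the expansion of fat mass, and Ndn has been described as an inhibitor of adipogenesis. TPM adds up both alleles, so the parental origin of the RNA was not measured here.

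H19 is the host of miR-675, and its mature arms are shown because H19 is the gene with the widest range here. The capitals mark the seed, bases 2 to 8, and the sequences are from RefSeq on GRCm38.p6.
miR-675-5p, chr7:142577112-142577133, minus strand: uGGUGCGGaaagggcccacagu
miR-675-3p, chr7:142577078-142577099, minus strand: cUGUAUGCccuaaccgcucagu
The seeds of these arms differ. The row of the hairpin gene Mir675 reached at most 0.116 TPM and was listed at 0 in 2 libraries, but the TPM of a hairpin gene does not measure its mature miRNAs. The hairpin genes within Meg3 (Mir770 and Mir1906-1) and Mest (Mir335) were listed at 0 in all 12 libraries.

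Promoter windows of RefSeq, from 250 bases before to 50 bases after a transcript's start, were found for 7 of the 10 genes, in 10 windows. H19, Peg10 and Cdkn1c had no entry. Dlk1 and Meg3 are shown because they share a cluster and lie at opposite ends of the range of levels, and Peg3, Ndn and Nnat because their levels moved between stages. The windows were searched on both strands for GGGGCCCC, a GC-rich element bound by PLAGL1, TGACGTCA, the cAMP response element (CRE), and GCATGCGC, a core of the NRF1 site. These motifs were picked with the sequences in view. A match is marked in capitals.
Dlk1, chr12:109452573-109452872, plus strand: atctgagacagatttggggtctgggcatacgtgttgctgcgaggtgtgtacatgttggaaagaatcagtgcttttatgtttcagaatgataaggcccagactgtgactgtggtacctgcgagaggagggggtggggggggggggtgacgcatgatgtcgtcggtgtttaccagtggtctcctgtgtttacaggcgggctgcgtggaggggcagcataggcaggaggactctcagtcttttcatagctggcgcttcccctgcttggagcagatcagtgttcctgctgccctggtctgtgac
Meg3, chr12:109540746-109541045, plus strand: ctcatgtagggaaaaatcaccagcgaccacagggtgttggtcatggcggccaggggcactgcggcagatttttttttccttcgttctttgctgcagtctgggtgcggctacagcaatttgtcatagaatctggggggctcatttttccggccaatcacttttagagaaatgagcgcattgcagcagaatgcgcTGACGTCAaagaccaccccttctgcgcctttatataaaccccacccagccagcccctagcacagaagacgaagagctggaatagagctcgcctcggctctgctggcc
Peg3, chr7:6730370-6730669, minus strand: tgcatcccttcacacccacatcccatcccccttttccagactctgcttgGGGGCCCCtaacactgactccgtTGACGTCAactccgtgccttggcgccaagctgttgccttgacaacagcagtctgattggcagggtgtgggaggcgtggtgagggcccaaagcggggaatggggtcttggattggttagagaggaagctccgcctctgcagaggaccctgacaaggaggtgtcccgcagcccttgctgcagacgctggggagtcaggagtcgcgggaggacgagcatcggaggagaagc
Ndn, chr7:62348027-62348326, plus strand: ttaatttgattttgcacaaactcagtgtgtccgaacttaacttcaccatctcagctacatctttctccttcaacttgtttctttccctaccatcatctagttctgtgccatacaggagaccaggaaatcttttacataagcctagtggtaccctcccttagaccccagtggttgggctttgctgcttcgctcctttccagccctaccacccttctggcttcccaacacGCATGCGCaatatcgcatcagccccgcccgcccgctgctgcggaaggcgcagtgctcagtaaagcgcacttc
Nnat, chr2:157559828-157560127, plus strand: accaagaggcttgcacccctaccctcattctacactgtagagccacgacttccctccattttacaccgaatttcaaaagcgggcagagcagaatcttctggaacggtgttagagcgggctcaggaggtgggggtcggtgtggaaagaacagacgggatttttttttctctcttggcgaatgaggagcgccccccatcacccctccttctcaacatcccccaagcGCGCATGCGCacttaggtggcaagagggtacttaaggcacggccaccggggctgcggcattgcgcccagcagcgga
Peg3 held both GGGGCCCC and the CRE, and Meg3 held the CRE. Ndn held the NRF1 core once, while in Nnat matches on both strands overlapped. The window of Dlk1 held none of the motifs, nor did those of Mest and Plagl1. Of 32851 promoters of the same length, 1.08% held GGGGCCCC, 1.79% the CRE and 2.71% the NRF1 core.

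Fto was at 9.96%, 10.8% and 10.1% of its shScram mean in shFto cells at Pre, MCE and Diff, a log2 difference of -3.09 over the stages (p = 0.00926, two-sided, by an exact permutation of the line labels at each stage, which can give no smaller p). Replicate 1 of shScram at Diff has a treatment entry that names the knockdown, and was assigned by its title. Its Fto level of 73.5 TPM was near the 70.8 TPM of replicate 2. Without this library the log2 differences between lines at Diff were 3.28 for H19, 0.14 for Dlk1, -1.75 for Peg10, 0.73 for Peg3, 0.72 for Nnat, 0.02 for Ndn and 5.27 for Igf2. The libraries of shScram Pre differed from each other more than other replicates did, with a correlation over genes of 0.939 against 0.990 to 0.993. Values of the 10 genes that rest on that group are therefore also given without its replicate 1. The correlation does not show which of the 2 libraries deviates, and leaving out replicate 2 can move a value the other way. Depth is unknown, since TPM is relative to the total of a library and keeps none. Of the fibroblast markers none was below 1 TPM in every library, and their summed level was 8433 to 13384 TPM. The defining markers of endothelium (Pecam1, Cdh5 and Kdr) were below 1 TPM throughout. So were Ptprc and Adgre1 of macrophages and Epcam, Cdh1 and Krt18 of epithelium. The other markers of these lists, Cd68 and Csf1r of macrophages and Krt8 of epithelium, reached 1 TPM in at least 1 library.

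Of the 10 genes, 6 passed the filter on low values (at least 1 TPM in at least 2 libraries) and 4 did not. In each comparison all 6 would also have passed without the line or group in which they were higher. Dlk1 was the most abundant, with a mean of 915 TPM over the 12 libraries and rank 172 among 55487 genes, a level per length far above the others. Peg10 (78.02 TPM), Ndn (76.6 TPM), Peg3 (20.6 TPM), H19 (10.3 TPM) and Nnat (2.64 TPM) followed. In bulk RNA, fewer cells that express a gene and less RNA per cell cannot be told apart.

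**Figure D1:**
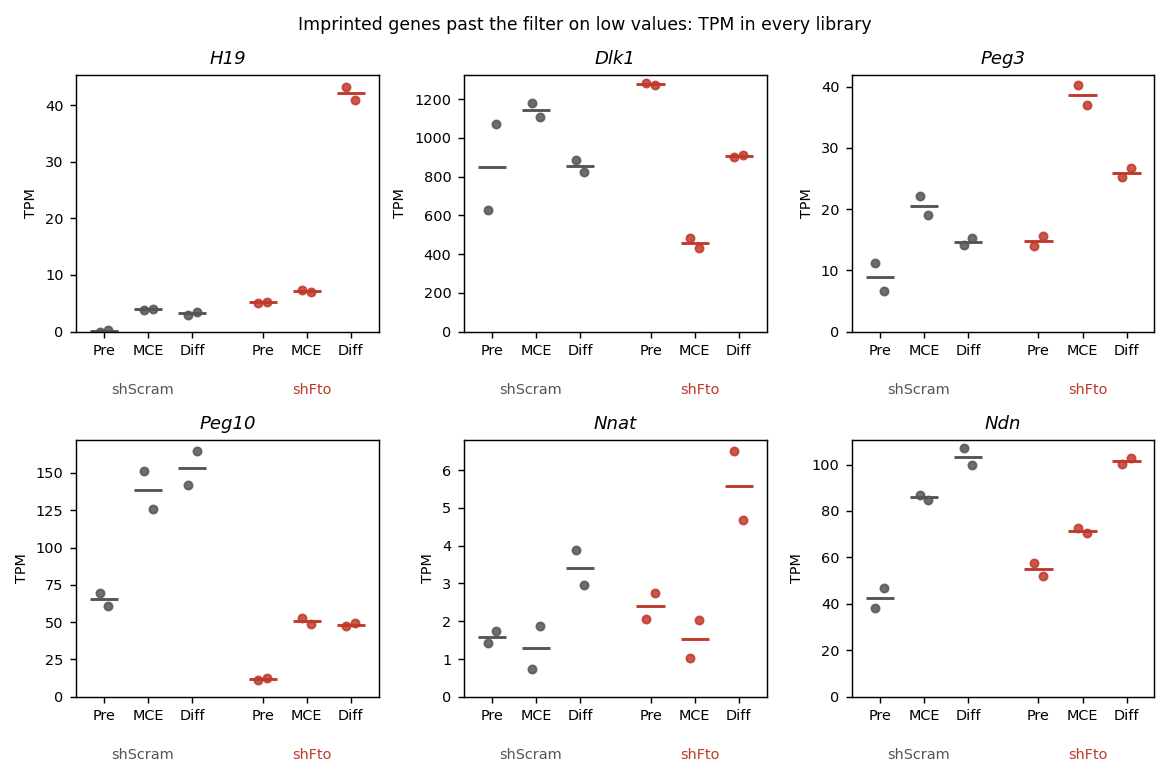
TPM (y axis, linear from 0, a separate scale per gene) of the 6 imprinted genes past the filter in every library, by stage and line (x axis). Points are the 2 libraries of a group and the bar is their mean. H19 peaked at 43.3 TPM in shFto Diff, Dlk1 was lowest in shFto MCE, and Peg10 lay lower in shFto than in shScram at each stage.

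The 4 genes below the filter were near the floor of the measurement. Meg3, the maternally expressed noncoding RNA of the Dlk1 cluster, was above 0 in 3 of 12 libraries and reached at most 0.0175 TPM. Cdkn1c, an inhibitor of cyclin-dependent kinases, was above 0 in 3 libraries with a maximum of 0.137 TPM. Mest, a hydrolase-like protein, was above 0 in all 12 libraries, from 0.0513 to 0.821 TPM. Its highest values were in the Diff groups of both lines, where shScram had 0.821 and 0.450 TPM and shFto 0.607 and 0.552 TPM. Plagl1, a zinc finger transcription factor, was listed at 0 in all 6 shScram libraries. In shFto it was at 0.566 and 0.172 TPM at Pre, 0.0498 and 0.0355 TPM at MCE, and 0.243 and 0.128 TPM at Diff. The lines did not overlap for Plagl1, but every value was under 1 TPM and none was tested.

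**Figure D2:**
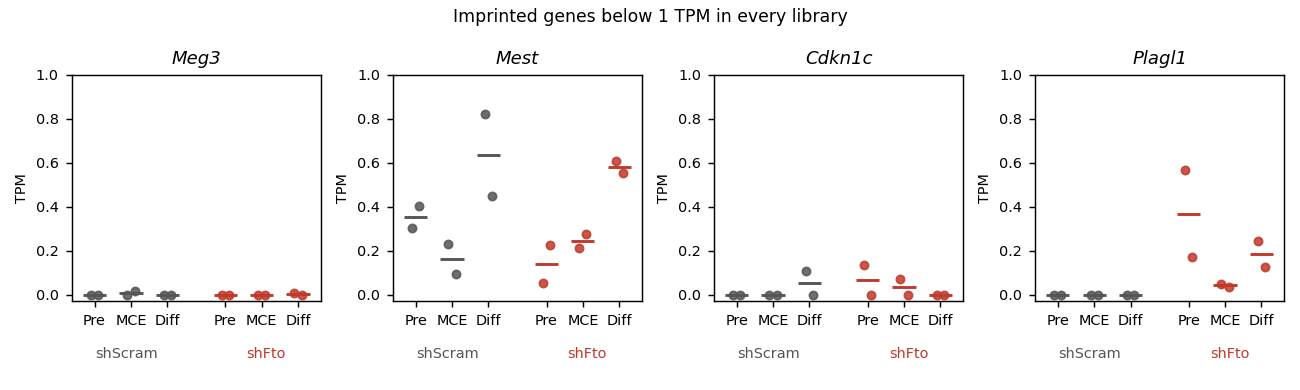
TPM (y axis, linear) of Meg3, Mest, Cdkn1c and Plagl1 in every library, by stage and line (x axis). Points are the 2 libraries of a group and the bar is their mean. All points are below 1 TPM, and Plagl1 is at 0 in every shScram library.

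Comparisons between lines ask how shFto cells differ from shScram cells at a stage, and those between stages how levels change with stage in a line. An effect of the Fto knockdown cannot be told apart from other differences between the lines. Since H19 and Dlk1 were known to differ between lines when the list was made, their line differences are described without a test, which leaves 4 genes (Peg3, Peg10, Nnat and Ndn). At each stage Peg3 was called higher and Peg10 lower in shFto, where called means an adjusted p under 0.05 in limma over all 15968 genes tested. Nnat and Ndn were not called at any stage. Over all genes tested, 15.9% were called higher and 12.3% lower at Pre, 10.5% and 7.26% at MCE, and 11.9% and 9.31% at Diff. The median log2 difference of the 4 genes was 0.38, -0.05 and 0.27 at the 3 stages, against 0.08, 0.05 and 0.03 over all genes tested.

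Between stages all 6 genes were tested. In shScram, 4 rose from Pre to MCE (H19, Peg3, Peg10 and Ndn) and 0 fell, where 12.2% of all genes tested were called higher and 26.9% lower. From MCE to Diff in shScram 1 rose (Nnat) and 0 fell, against 20.0% and 5.22% of all genes. In shFto, 3 rose from Pre to MCE (Peg3, Peg10 and Ndn) and 1 fell (Dlk1), against 8.80% and 19.9%. From MCE to Diff in shFto 4 rose (H19, Dlk1, Nnat and Ndn) and 0 fell, against 20.2% and 6.48%. The median of all genes tested moved by -0.17 and -0.18 from Pre to MCE and by 0.23 and 0.17 from MCE to Diff in shScram and shFto. Measured from that median, every called stage change of the 6 genes kept its direction. The libraries that showed H19 and Dlk1 to differ between the lines also enter these stage comparisons. The stage calls of H19 and Dlk1, and their part in the counts, are thus no independent support.

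The change between stages can itself differ between lines. For MCE against Pre, Peg10 of the 4 tested genes was called, higher in shFto, where 2.52% of all genes were called higher and 2.59% lower. For Diff against MCE 0 of 4 were called by limma, and 0 had an unadjusted p under 0.05, where 1.47% and 1.01% of all genes were called higher and lower. Comparisons at neighbouring stages share libraries, so their values are given side by side only.

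**Figure D3:**
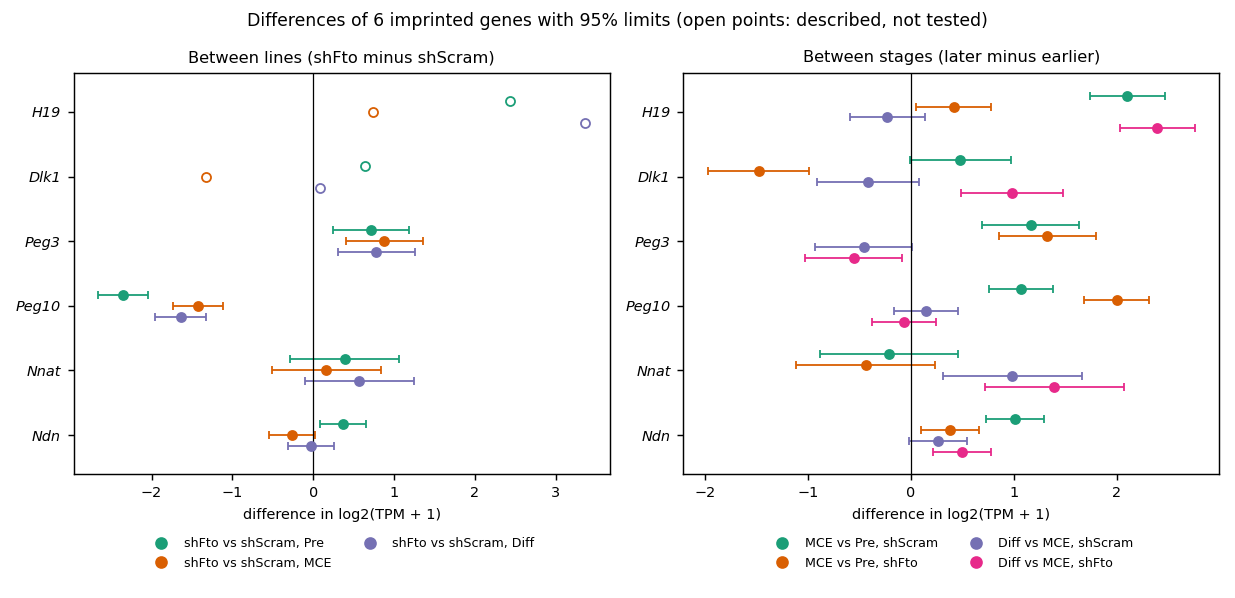
Difference in log2(TPM + 1) (x axis) of 6 imprinted genes (y axis) between lines (left) and between stages (right), by comparison (colour). Points are limma estimates from 2 libraries per group and bars are their 95% limits, while open points are differences described without a test. Peg10 lies below 0 and Peg3 above 0 at each stage on the left, and on the right the intervals of Peg3 and Peg10 for MCE against Pre lie above 0 in both lines.

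H19, a maternally expressed long noncoding RNA, lies at chr7:142575529-142578143 on the minus strand of GRCm38 (ENSMUSG00000000031). It contains Mir675 and overlaps Gm27483 and Gm27786 on the opposite strand, whose reads cannot be told apart without strand. In shScram its level was 0 and 0.297 TPM at Pre, 3.87 and 3.91 TPM at MCE, and 2.92 and 3.45 TPM at Diff. The shFto libraries held 5.09 and 5.22 TPM at Pre, 7.33 and 7.05 TPM at MCE, and 43.3 and 40.9 TPM at Diff. Both shFto Diff libraries were far above all others, and no neighbouring groups in the order of levels overlapped, an order that ran from shScram Pre, shScram Diff and shScram MCE to shFto Pre, shFto MCE and shFto Diff. The log2 difference between lines was 2.43 at Pre, 0.74 at MCE and 3.37 at Diff, given as a description. With a pseudocount of 0.1 in place of 1 it was 4.72, 0.87 and 3.69, so which of Pre and Diff shows the larger difference depends on the pseudocount. Without replicate 1 of shScram Pre, which was listed at 0, it was 2.25 at Pre.

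The list was made with H19 known to be higher in shFto, so p-values from the same libraries are no independent support. With that limit, the stage changes of H19 were tested within each line. In shScram it rose from Pre to MCE by 2.103 ± 0.16 (SE) on the log2 scale (limma, adjusted p = 2.56e-05), by 1.92 without replicate 1 of shScram Pre, and by 4.32 with a pseudocount of 0.1. The next change in shScram, from MCE to Diff, was -0.23 (95% limits -0.59 to 0.14) and was not called, but it was called with quantile normalization (-0.66, adjusted p = 0.0165). In shFto the change from Pre to MCE was 0.41 (95% limits 0.05 to 0.78, adjusted p = 0.0885). It became a call with median-ratio scaling (0.62, adjusted p = 0.0182), quantile normalization (0.63, 0.0137), a fit on the compared libraries (0.0404), or without replicate 1 or 2 of shScram Pre (0.0187 and 0.0186). H19 then rose by 2.39 ± 0.16 from MCE to Diff in shFto (adjusted p = 4.61e-05), to 5.85 times the MCE mean. The rise was called under all 20 alternative settings.

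Igf2, the paternally expressed growth factor of the same cluster, lies 72622 bases from H19. In shScram it was listed at 0 in 3 of the 4 libraries of Pre and MCE and at 0.0636 TPM in the other, and at Diff it was at 1.36 and 0.0251 TPM. In shFto it was at 2.69 and 0.0818 TPM at Pre, 2.03 and 2.65 TPM at MCE, and 37.5 and 39.4 TPM at Diff. As for H19, the shFto Diff libraries stood far above the rest. Igf2 passed the filter only through shFto, the line where it was higher, so its log2 difference between lines at Diff of 4.66 is a description. Its rise from MCE to Diff in shFto was 3.57 ± 0.53 (adjusted p = 0.00168, and 0.0545 with a pseudocount of 0.1). Igf2 overlaps Gm49394 and Mir483 on its own strand and Igf2os on the opposite strand. Reads of Igf2os cannot be told apart from those of Igf2 without strand, and strand would not separate those of Gm49394 and Mir483. Over the 6 group means, the genes whose log2 level was most like that of H19, among 10799 genes with a mean of at least 5 TPM, were Fam171a2 (r = 0.974), Sbno2 (r = 0.973), Gata6 (r = 0.973), Rdh14 (r = 0.969) and Nat9 (r = 0.968).

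Dlk1, a transmembrane protein with EGF-like repeats that is shed from preadipocytes, lies at chr12:109452823-109463336 on the plus strand (ENSMUSG00000040856), 77664 bases from Meg3. Its level in shScram was 627 and 1072 TPM at Pre, 1182 and 1106 TPM at MCE, and 888 and 822 TPM at Diff. The shFto values were 1284 and 1272 TPM at Pre, 484 and 431 TPM at MCE, and 899 and 909 TPM at Diff. The shFto MCE libraries were the lowest of all, and the lines did not overlap at any stage, while shScram Pre overlapped shScram Diff. As a description, the log2 difference of shFto from shScram was 0.64 at Pre, -1.32 at MCE and 0.08 at Diff. The value at Pre rests largely on replicate 1 of shScram, without which it was 0.25, and it was 1.03 without replicate 2.

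In shScram no stage change of Dlk1 was called: it was 0.48 (95% limits -0.01 to 0.97) from Pre to MCE and -0.42 (95% limits -0.91 to 0.07) from MCE to Diff. Both were called with median-ratio scaling (0.71, adjusted p = 0.0169, and -0.69, adjusted p = 0.0276), and the second in a fit on the compared libraries (0.0239). The shFto MCE libraries also enter the line difference of Dlk1, which was known when the list was made. The p-values of its changes in shFto are thus no independent support. In shFto Dlk1 fell by 1.48 from Pre to MCE (SE 0.22, limma, adjusted p = 0.00112). It rose again by 0.98 ± 0.22 from MCE to Diff (adjusted p = 0.0107), a call lost without replicate 2 of shFto MCE (adjusted p = 0.0818) or without replicate 1 or 2 of shFto Diff (adjusted p = 0.0592 and 0.0644). The change from MCE to Diff in shScram became a call without replicate 1 or 2 of shScram Pre (adjusted p = 0.00152 and 0.00148), while that from Pre to MCE was 0.093 (adjusted p = 0.449) without replicate 1 and 0.87 (adjusted p = 2.21e-05) without replicate 2 of that group. No other gene of the cluster passed the filter: Rian reached at most 1.08 TPM, Rtl1 0.959 TPM, Mirg 0.821 TPM and Dio3 0.0751 TPM. Among group means, the genes most like Dlk1 were Capg (r = 0.985), Cfap298 (r = 0.954), Sh3bp2 (r = 0.954), Nfe2l1 (r = 0.950) and Prss23 (r = 0.936).

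Peg10, a gene derived from a retrotransposon that is needed for placental development, lies at chr6:4747306-4760517 on the plus strand (ENSMUSG00000092035). In shScram it was at 69.7 and 61.0 TPM at Pre, 151 and 126 TPM at MCE, and 142 and 165 TPM at Diff. In the shFto libraries its level was 11.5 and 12.5 TPM at Pre, 52.9 and 48.8 TPM at MCE, and 47.3 and 49.4 TPM at Diff. All 6 shFto libraries were below all 6 shScram libraries. The shFto mean was 0.183, 0.367 and 0.316 times that of shScram at Pre, MCE and Diff. The log2 difference was -2.35 ± 0.14 at Pre (limma, adjusted p = 3.09e-05), -1.42 ± 0.14 at MCE (adjusted p = 0.000207) and -1.64 ± 0.14 at Diff (adjusted p = 7.39e-05). At Pre it was -2.26 without replicate 1 of shScram (adjusted p = 3.11e-06). A fit on only the 4 Pre libraries lost the call at Pre (adjusted p = 0.115), but that fit called 0 of all genes.

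Peg10 rose from Pre to MCE by 1.07 ± 0.14 in shScram (adjusted p = 0.000511) and by 2.00 ± 0.14 in shFto (adjusted p = 1.60e-05). The rise in shScram was 1.16 without replicate 1 of shScram Pre, and was not called in a fit on the compared libraries (adjusted p = 0.0793). The difference between these rises was 0.93 ± 0.19 (adjusted p = 0.0313). It was 0.83 (adjusted p = 0.00860) without replicate 1 of shScram Pre. The call was lost when any library outside shScram Pre was left out (adjusted p 0.0518 to 0.141) and in a fit on the compared libraries (0.115). The changes from MCE to Diff were 0.15 and -0.07 and were not called. Sgce, a sarcoglycan gene read in the opposite direction, starts 98 bases from Peg10. It was at 172 and 111 TPM in shScram Pre against 101 and 114 TPM in shFto Pre, where the lines overlapped. At Diff the shScram libraries held 144 and 155 TPM and the shFto libraries 78.9 and 84.2 TPM, a difference of -0.87 ± 0.18 (adjusted p = 0.0102). Peg10 and Sgce were thus both called lower in shFto at Diff.

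Peg3, a zinc finger protein, lies at chr7:6703892-6730431 on the minus strand (ENSMUSG00000002265). In shScram it was at 11.2 and 6.57 TPM at Pre, 22.1 and 19.02 TPM at MCE, and 14.1 and 15.2 TPM at Diff. The shFto levels were 14.0 and 15.7 TPM at Pre, 40.3 and 37.0 TPM at MCE, and 25.3 and 26.6 TPM at Diff. The lines did not overlap at any stage, and MCE was the highest stage in both. The log2 difference between lines was 0.72 ± 0.21 at Pre (limma, adjusted p = 0.0343), 0.88 ± 0.21 at MCE (adjusted p = 0.0196) and 0.78 ± 0.21 at Diff (adjusted p = 0.0273). The value at Pre was 1.06 without replicate 1 of shScram Pre and 0.38 without its replicate 2. These calls were near the threshold: leaving out any library outside shScram Pre ended the call at Pre (adjusted p 0.0516 to 0.144). Leaving out any of the 4 libraries compared ended it at MCE (0.0613 to 0.128) and at Diff (0.0985 to 0.143). Quantile normalization also ended all 3 calls (adjusted p = 0.140, 0.0862 and 0.0655), no filter on low values those at Pre (0.0720) and Diff (0.0526), and median-ratio scaling (0.0641) and a fit on the compared libraries (0.328) that at Pre. The fit on the compared libraries called 0 of all genes at Pre.

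From Pre to MCE, Peg3 rose by 1.16 ± 0.21 in shScram (adjusted p = 0.00288) and by 1.33 ± 0.21 in shFto (adjusted p = 0.00160). The rise in shScram was 1.51 without replicate 1 of shScram Pre, and was not called in a fit on the compared libraries (adjusted p = 0.134). Between MCE and Diff it changed by -0.46 in shScram (adjusted p = 0.142) and -0.56 in shFto (adjusted p = 0.0800). Both became calls without replicate 1 (adjusted p = 0.00516 and 0.00163) or replicate 2 (0.00485 and 0.00152) of shScram Pre and in a fit on the compared libraries (0.0362 and 0.00278), and that in shFto with median-ratio scaling (0.0367). Usp29, a ubiquitin-specific protease gene read in the opposite direction, starts 146 bases from Peg3. It was at 0.193 to 0.551 TPM in shScram and at 0.823 to 1.80 TPM in shFto, and the lines did not overlap. Since Usp29 passed the filter only through shFto, its log2 differences between lines of 0.66 at Pre, 1.03 at MCE and 0.68 at Diff are a description.

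**Figure D4:**
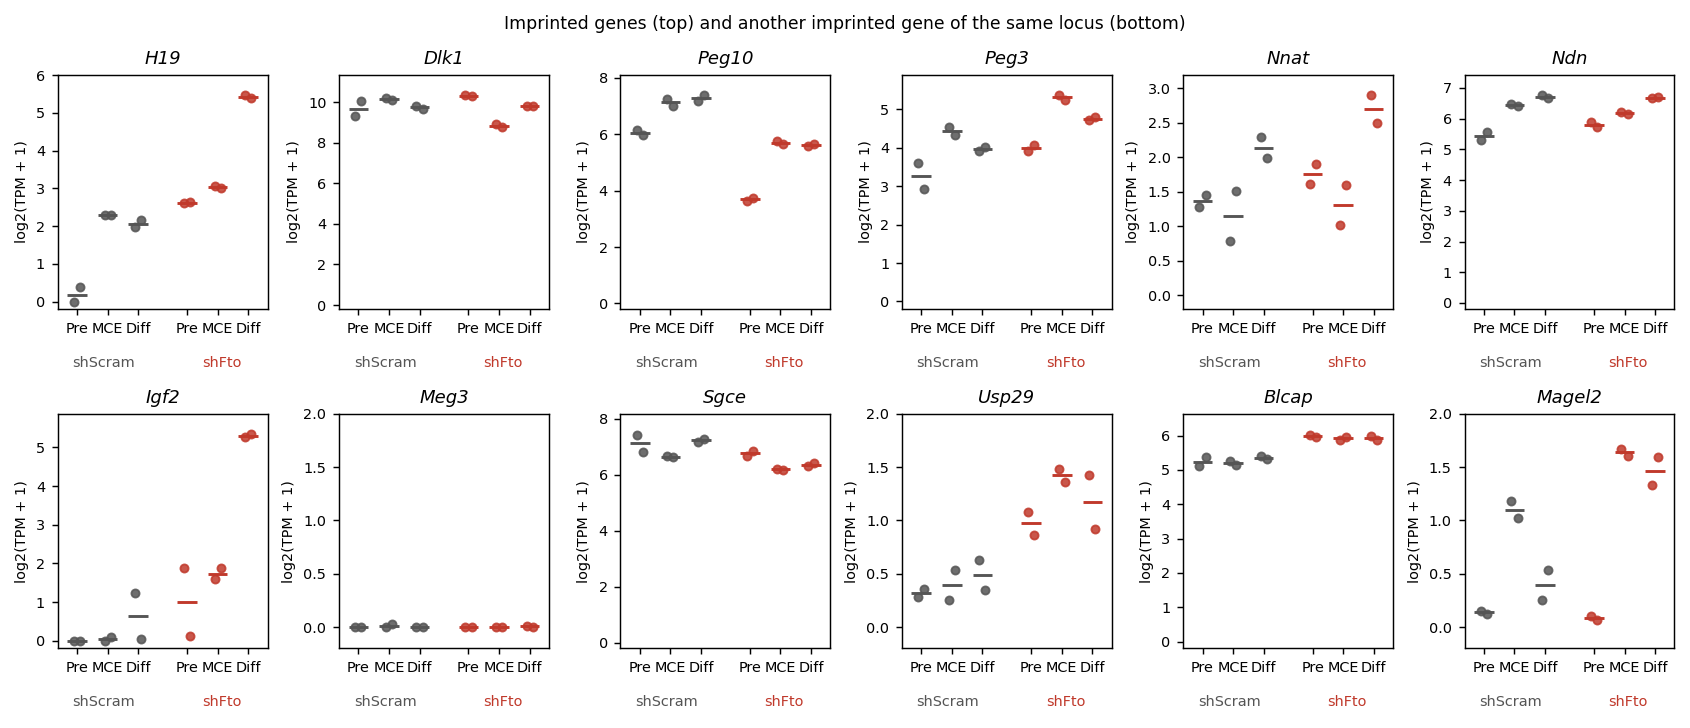
log2(TPM + 1) (y axis, a separate scale per panel) of 6 imprinted genes (top row) and another imprinted gene of the same cluster (bottom row) in every library, by stage and line (x axis). Points are the 2 libraries of a group and bars their mean. H19 and Igf2 are both highest in shFto Diff, and Meg3 stays near 0 where Dlk1 is abundant.

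Ndn (necdin), a MAGE family protein that restrains cell growth, lies at chr7:62346569-62350262 on the plus strand (ENSMUSG00000033585) and overlaps Gm32061 on the opposite strand. In shScram it was at 38.0 and 46.7 TPM at Pre, 86.9 and 84.8 TPM at MCE, and 107 and 99.7 TPM at Diff. For shFto the values were 57.6 and 52.0 TPM at Pre, 72.8 and 70.3 TPM at MCE, and 100.0 and 103 TPM at Diff. The level was higher at each later stage in both lines, and the lines overlapped only at Diff. Its line differences were 0.37 (95% limits 0.09 to 0.65), -0.26 (-0.54 to 0.02) and -0.03 (-0.31 to 0.25) at Pre, MCE and Diff. The value at Pre was 0.22 (adjusted p = 0.0833) without replicate 1 of shScram Pre, and became a call without its replicate 2 (0.51, adjusted p = 0.000510) or when the filter asked for a mean of 5 TPM or more (0.0481). That at MCE became a call without replicate 1 or 2 of shScram Pre (adjusted p = 0.0154 in each) or in a fit on the compared libraries (0.0196). From Pre to MCE Ndn rose by 1.01 ± 0.12 in shScram (limma, adjusted p = 0.000397), and by 0.86 without replicate 1 of shScram Pre, and the rise was not called in a fit on the compared libraries (adjusted p = 0.0827).

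In shFto the rise of Ndn from Pre to MCE was 0.38 ± 0.12 (adjusted p = 0.0489), a call lost when any library outside shScram Pre was left out (0.0735 to 0.245), with no filter on low values (0.0517), with robust eBayes (0.0540) and with a replicate block (0.0763). The difference between the lines in that rise was -0.63 (95% limits -1.03 to -0.23, adjusted p = 0.0812), and it became a call without replicate 1 or 2 of shScram Pre (adjusted p = 0.0198 and 0.000303). From MCE to Diff the change was 0.26 in shScram (adjusted p = 0.155), called without replicate 1 or 2 of shScram Pre (0.0116 and 0.0117) or in a fit on the compared libraries (0.0440). In shFto it was 0.50 ± 0.12 (adjusted p = 0.0184), lost without any of the 4 libraries compared (0.0811 to 0.116) and with median-ratio scaling, which gave 0.28 (0.0927). In the wider cluster of Ndn, Peg12 was called higher in shFto at each stage, by 1.18, 1.22 and 1.48, with 0.64 at Pre without replicate 1 of shScram. Snrpn, which encodes a splicing factor, was called higher at Pre (0.91, adjusted p = 0.00347). Magel2, a MAGE gene next to Ndn, was called higher at Diff (1.07, adjusted p = 0.00247) and rose from Pre to MCE in both lines, by 0.96 in shScram and 1.55 in shFto. Mkrn3 rose from MCE to Diff in shFto (0.56, adjusted p = 0.0409), and Ube3a was called in none of the comparisons.

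Nnat (neuronatin), a small membrane protein of the endoplasmic reticulum, lies at chr2:157560078-157562522 on the plus strand (ENSMUSG00000067786), inside Blcap on the opposite strand. In shScram it was at 1.42 and 1.75 TPM at Pre, 0.723 and 1.87 TPM at MCE, and 3.88 and 2.96 TPM at Diff. In shFto it was at 2.05 and 2.74 TPM at Pre, 1.03 and 2.04 TPM at MCE, and 6.51 and 4.67 TPM at Diff. Diff was the highest stage in both lines, while the lines overlapped at MCE. Its line differences were 0.39 (95% limits -0.28 to 1.06), 0.16 (-0.51 to 0.83) and 0.57 (-0.10 to 1.24) and were not called, with 0.30 at Pre without replicate 1 of shScram.

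Nnat rose from MCE to Diff by 0.98 ± 0.30 in shScram (limma, adjusted p = 0.0405) and by 1.39 ± 0.30 in shFto (adjusted p = 0.00900). The call in shScram was lost without replicate 1 of shScram MCE (adjusted p = 0.225), replicate 1 or 2 of shScram Diff (0.184 and 0.0989), or a library of shFto Pre (0.0584) or shFto Diff (0.0542). It was also lost with a pseudocount of 0.1 (0.0502), no filter on low values (0.102), median-ratio scaling (0.0929) and quantile normalization, which gave 0.56 (0.254). The call in shFto was lost without replicate 1 of shFto MCE (0.0763) or of shFto Diff (0.0701), and with quantile normalization, which gave 0.90 (0.0643). Blcap was at 33.5 to 41.1 TPM in shScram and 57.9 to 64.4 TPM in shFto and was called higher in shFto at each stage (0.76, 0.71 and 0.58). Reads of the overlap cannot be assigned to Nnat or Blcap without strand.

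Another 40 imprinted genes were listed, of which 24 passed the filter. For 3 of them (Igf2, Usp29 and Kcnq1ot1) the filter was met only with the line where they were higher, so they are left out of the counts between lines. Of the remaining 21, 7 were called higher and 2 lower in shFto at Pre, where 15.9% and 12.3% of all genes tested were called. At MCE it was 6 and 2, against 10.5% and 7.26%, and at Diff 5 and 4, against 11.9% and 9.31%. The median log2 difference of the 21 was 0.36, 0.14 and 0.31, against 0.08, 0.05 and 0.03 over all genes tested. Replicate 1 of shScram Pre was also left out, a check added after seeing the data. The log2 differences at MCE and Diff do not use that library and stayed as they were. The calls at these stages did not stay, since the spread of a gene is estimated over all libraries. More of these genes were called at both stages without that library, so the counts above depend on it. The largest called increases among the 21 were those of H13 (1.39) and Peg12 (1.18) at Pre, Dcn (1.58) and Peg12 (1.22) at MCE, and Peg12 (1.48) at Diff. Copg2, which overlaps Mest on the opposite strand, was called lower at Pre (-0.61) and Diff (-0.44), and Osbpl5 of the Cdkn1c cluster higher at Pre (0.81). Airn, an antisense RNA that overlaps Igf2r, was called lower at each stage (-0.71, -0.80 and -0.91). Without replicate 1 of shScram Pre, Airn (-0.38) and Osbpl5 (0.33) were not called at Pre. H13 was then at 0.88 and Peg12 at 0.64, while Dcn went from 0.87 to 1.61. Which genes show the largest increases at Pre thus depends on that library. Igf2r, the receptor that clears IGF2, was called higher at Pre (0.47) and lower at MCE (-0.46) and Diff (-0.40), with the limit that its reads and those of Airn overlap.

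Kcnq1ot1 met the filter only through a group where it was higher for MCE against Pre in shScram and Diff against MCE in shFto, which leaves 23 genes there and 24 elsewhere. From Pre to MCE 1 rose and 5 fell in shScram, where 12.2% of all genes rose and 26.9% fell, and 2 rose and 7 fell in shFto, against 8.80% and 19.9%. The largest fall was that of Slc38a4, an amino acid transporter, with a log2 change of -3.28 in shScram and -2.03 in shFto. Airn (-1.03) in shScram and Osbpl5 (-1.28) in shFto followed. Without replicate 1 of shScram Pre the changes in shScram were -3.04 for Slc38a4 and -0.71 for Airn. That of Osbpl5 was -0.61 with this library and -1.08 without it. The rises were those of Magel2 in both lines and Dcn (1.24), which encodes the matrix protein decorin, in shFto. From MCE to Diff 8 rose and 2 fell in shScram (Commd1, -0.74, and Magel2, -0.70), against 20.0% and 5.22% of all genes. In shFto 7 rose and 0 fell by limma, against 20.2% and 6.48%. Commd1 alone was lower there at an unadjusted p under 0.05 (limma, -0.36, adjusted p = 0.117). The largest rises were those of Airn (1.68) and Slc38a4 (1.58) in shScram and of Igf2 (3.57) and Slc38a4 (2.08) in shFto. Kcnq1ot1 of the Cdkn1c cluster differed by 0.67 in shFto, given as a description. The medians of these genes were 0.0049, 0.22, -0.13 and 0.17 for MCE against Pre and Diff against MCE in shScram and then in shFto.

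Other measures moved with these groups. The summed level of 8 adipocyte markers was 133 to 192 TPM at Pre, 362 to 363 TPM at MCE and 1364 to 1376 TPM at Diff in shScram, and 268 to 300, 264 to 273 and 416 to 453 TPM in shFto. Lep was the only one of these 8 markers below 1 TPM in all libraries. The sum does not follow each marker. In shFto Fabp4 was at 9.01 and 6.86 TPM at Pre and at 44.1 and 52.7 TPM at MCE, while the rest of the list summed lower at MCE. The summed level of 6 genes of dividing cells was highest at MCE, with 701 to 748 TPM in shScram and 600 to 632 TPM in shFto, against 137 to 272 TPM at Pre and Diff. That of 4 smooth muscle markers was 311 to 462 TPM in shScram Pre, 7.81 to 10.45 TPM in MCE and 24.9 to 32.8 TPM in Diff, and in shFto 1058 to 1147, 167 to 188 and 89.5 to 92.1 TPM, while Cnn1 and Myh11 stayed below 1 TPM. Skeletal muscle markers summed to at most 13.2 TPM, with Myod1, Myog and Myh3 below 1 TPM. Macrophage markers summed to at most 4.01 TPM, endothelial markers to 0.651 TPM and epithelial markers to 1.119 TPM. The part of these differences in the levels of the imprinted genes was not tested.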

How the data were processed

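RNA-seq of total RNA from 3T3-L1 cells was analysed in 12 libraries of 6 groups (shScram or shFto at Pre, MCE or Diff), assigned by title. The paper describes fragments of 40 to 60 nt for its m6A and input libraries, and does not state the size used for these 12. The authors used Trim Galore 0.6.5 for trimming, HISAT2 2.1.0 for alignment to GRCm38, and StringTie 2.1.4 with Ensembl release 102 for the deposited TPM of each gene. For their own comparisons the authors used DESeq2 1.30.1 on counts, which was not repeated since counts were not used here. Depth is unknown, and strand use in counting is not given in the sources used here.

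From the TPM, log2(TPM + 1) was computed, which understates changes of low genes. Of 55487 genes, 15968 reached 1 TPM in 2 or more libraries and entered limma 3.58.1 in R 4.3.3. The fit had a mean per group over all 12 libraries (6 residual degrees of freedom) and eBayes with trend, and tests were two-sided with Benjamini-Hochberg adjustment. Called means an adjusted p under 0.05. Differences are log2 with SE. The test was checked on simulated data. For Fto, line labels were permuted exactly at each stage. Coordinates are from GENCODE M21 on GRCm38, which held 99.4% of the identifiers, and sequences from RefSeq on GRCm38.p6. Tables and plots used Python 3.11.15, numpy 2.4.6, pandas 2.3.3 and matplotlib 3.10.9.

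The imprinted genes, the 40 others, the markers and the tests were chosen with earlier results of these data known. Named are the 10 genes, those of the 40 that pass the filter in a cluster of the 10, per comparison at most the 2 highest and 2 lowest called, and for H19 and Dlk1 the 5 genes most alike with a mean TPM of 5 or more. Alternatives changed the pseudocount, filter, scaling, libraries in the fit, spread estimate or block, or left out each library. Leaving out replicate 1 of shScram Pre for the 40 others was chosen after seeing the data.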

Additional observations from a re-analysis of the deposited data

Results flagged for a closer look

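The change from Pre to MCE differed between the lines, by the interaction contrast in limma, for 3 imprinted genes. Of the 4 tested genes of the set 1 was called, and of the 24 others 1 was called higher and 1 lower. Over all genes tested 2.52% were called higher and 2.59% lower, so the counts are not read as a trait of imprinted genes. Peg10 rose more in shFto, with a difference of 0.93 on the log2 scale (adjusted p = 0.0313). Igf2r differed by -0.92 (adjusted p = 0.0208) and Slc38a4 by 1.25 (adjusted p = 0.0258). Without replicate 1 of shScram Pre these were 0.83, -0.91 and 1.01. The call of Peg10 was lost under 12 of 20 alternatives. For Dlk1 both shFto libraries lay above both shScram libraries at Pre (0.64) and below them at MCE (-1.32), and above them again at Diff (0.082). Whether the line difference varies with stage was not tested, since Dlk1 was chosen with it known.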

How the results depend on the processing

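Each comparison was refitted under 20 alternatives. Of the 2 genes called between lines at Pre, 1 was left with no filter on low values, with median-ratio scaling and with quantile normalization, and 0 when only the libraries compared were fitted. That last fit called 0 of all genes at Pre. At MCE quantile normalization left 1 of 2, and at Diff no filter and quantile normalization each left 1 of 2. For MCE against Pre in shScram a fit on the compared libraries left 1 of 4. For Diff against MCE in shScram the count of 1 became 0 with a pseudocount of 0.1 or a mean TPM of at least 5 (which Nnat does not reach), and 4 in a fit on the compared libraries. Nnat lost that call with either scaling too, and the count of 1 was then Dlk1 with median-ratio scaling and H19 with quantile normalization. For the difference between lines in MCE against Pre it became 0 in that fit. Leaving out 1 library gave counts of 1 to 3, 1 to 3 and 1 to 2 between lines at Pre, MCE and Diff. It gave 4 to 5 and 0 to 4 in shScram and 3 to 5 and 1 to 5 in shFto for MCE against Pre and Diff against MCE, and 0 to 3 and 0 to 0 for the differences between lines. The Fto difference kept its direction and its side of the threshold under the 15 alternatives run for it, with p = 0.00926 by the exact permutation in each.

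Some values changed direction, none of them called in the fit as reported. Ranges are over the libraries left out in turn. Between lines, Nnat at MCE was -0.21 without replicate 1 of shScram MCE and -0.13 without replicate 2 of shFto MCE (range -0.21 to 0.53), and Ndn at Diff was 0.023 without replicate 1 of shScram Diff (range -0.080 to 0.023). For MCE against Pre in shScram, Nnat was 0.042 with quantile normalization and 0.15 without replicate 1 of shScram MCE (range -0.58 to 0.15). For Diff against MCE in shScram, median-ratio scaling gave -0.13 for Peg10 and -0.0063 for Ndn, and Igf2 was -0.0088 without replicate 1 of shScram Diff (range -0.0088 to 1.20). Without replicate 2 of shFto Pre, Igf2 was -0.15 for MCE against Pre in shFto (range -0.15 to 1.62) and -0.19 for the difference between lines (range -0.19 to 1.58). In that difference Peg3 was -0.18 without replicate 1 of shScram Pre (range -0.18 to 0.51), and Nnat 0.14 without replicate 2 of shScram MCE and 0.06 without replicate 1 of shFto MCE (range -0.59 to 0.14). In the difference for Diff against MCE, Peg3 was 0.014 with quantile normalization and 0.0062 without replicate 2 of shScram MCE (range -0.20 to 0.0062). The cause of these changes was not tested.

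The count of all genes called between lines was 4510 at Pre, 2838 at MCE and 3391 at Diff, with ranges over the alternatives of 0 to 10025, 1215 to 6548 and 1639 to 7290. For MCE against Pre it was 6236 (504 to 10338) in shScram and 4585 (2548 to 8164) in shFto, and for Diff against MCE 4023 (1605 to 8309) and 4256 (2013 to 8684). For the differences between lines it was 816 (239 to 8378) and 397 (125 to 2730). Libraries of the same replicate number showed no common deviation (r from -0.29 to 0.17 over 15 pairs of groups, 2 above 0.1 and 3 under -0.1). With 2 libraries per group this cannot exclude a pairing by number, and the fit as reported used none. With the replicate number as a block, the count for the difference between lines in MCE against Pre went from 1 to 0 (Peg10, adjusted p = 0.0564), and Ndn lost its call for MCE against Pre in shFto (adjusted p = 0.0763). With 2 libraries per group and no depth, small differences of low genes could not be resolved.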
